A study of Mus musculus with 20 samples.

Results

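The respiratory chain and the ATP synthase are built from subunits of 5 complexes. By their symbols, 99 of the 55573 gene IDs counted in this liver series were taken to code for them. They were chosen by symbol alone, as protein-coding genes of the Nduf, Sdh, Uqcr, Cyc1, Cox and Atp5 families and the protein genes of the mitochondrial genome. A gene with another form of symbol, such as Ndufab1, is not among them. A symbol does not show that the product is a structural subunit. Cox7a2l and Atp5s, for instance, are counted with complexes IV and V by symbol only. Of these genes, 86 lie in the nuclear genome and 13 in the mitochondrial genome. Liver RNA was sequenced from 20 male mice, 5 in each of 4 groups. Titan mice are a non-inbred line, also called DU6, bred over many generations for high body mass, and the controls came from the unselected FZTDU line of the same station. The groups were control and Titan mice aged 11 weeks and control and Titan mice aged 19–21 weeks, with no treatment and no engineered allele in any group. The paper names standard breeding feed for the Titan and control mice it compared. It describes this feed, given ad libitum, and pathogen-free housing for the breeding station, and standard chow for a clinic that phenotyped mice. At which site these livers were taken is not stated. A difference between Titan and control mice covers every locus at which the lines differ, no batch or processing date is given in the labels, and the livers of one line at each age came from different animals.

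Complexes I, III and IV pass electrons from NADH to oxygen and pump protons across the inner mitochondrial membrane, and complex II feeds in electrons from succinate without pumping. Complex V, the ATP synthase, lets the protons back through its membrane part and makes ATP in its F1 head. Complexes I, III, IV and V need subunits from both genomes, whereas complex II is wholly nuclear, and hepatocytes are rich in mitochondria.

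In 19–21-week-old livers, nuclear subunit transcripts were lower in Titan than in control mice. Of the 78 nuclear subunit genes with enough reads to test, 20 were lower and 1 was higher in Titan mice at an adjusted p under 0.05 (edgeR quasi-likelihood test, Benjamini–Hochberg over all 13783 genes tested), and 70 had a log2 fold change below 0. Across all genes tested, 4.88% were lower and 4.24% were higher, so the 25.6% of subunit genes that fell stood above the background and the 1.28% that rose did not. The median log2 fold change was -0.197 over the subunit genes and 0.009 over all genes. Expressed as counts scaled to a common library size (CPM), the CPM of all 5 Titan mice lay below that of all 5 control mice for 14 subunit genes and above it for 0, where 4.0% and 3.62% of all genes did so. The number of genes called varied with the mice used. It was 13 without replicate 3 of the control mice of that age, where 4.26% of all genes were lower. Without replicate 3 or replicate 4 of the Titan mice of that age it was also 13, where 3.82% and 3.39% were. It was 8 without 5 libraries that had over 25% of their reads outside genes, where 1.81% of all genes were lower. It was 6 with raw library sizes, where 2.44% were.

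At 11 weeks the share of nuclear subunit genes called lower was close to that of all genes. Compared to age-matched controls, 6 of the 78 were lower and 1 was higher in Titan mice, where 7.69% and 7.23% of all genes were. The median log2 fold change was -0.10 against -0.02 over all genes, and 61 of the 78 were below 0. All control mice lay above all Titan mice for 7 subunit genes and below them for 1, where the backgrounds were 6.08% and 5.84%. The count of 6 became 2 without replicate 3 of the control mice, where 6.8% of all genes were lower. It was also 2 without replicate 1 of the Titan mice, where 6.28% were. Without replicate 4 or replicate 5 of the Titan mice it was 3, where 7.38% and 6.09% were. It was 1 with raw library sizes, where 4.64% of all genes were lower. With the percent of reads outside genes as a covariate it was 11, where 7.88% were.

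**Figure D1:**
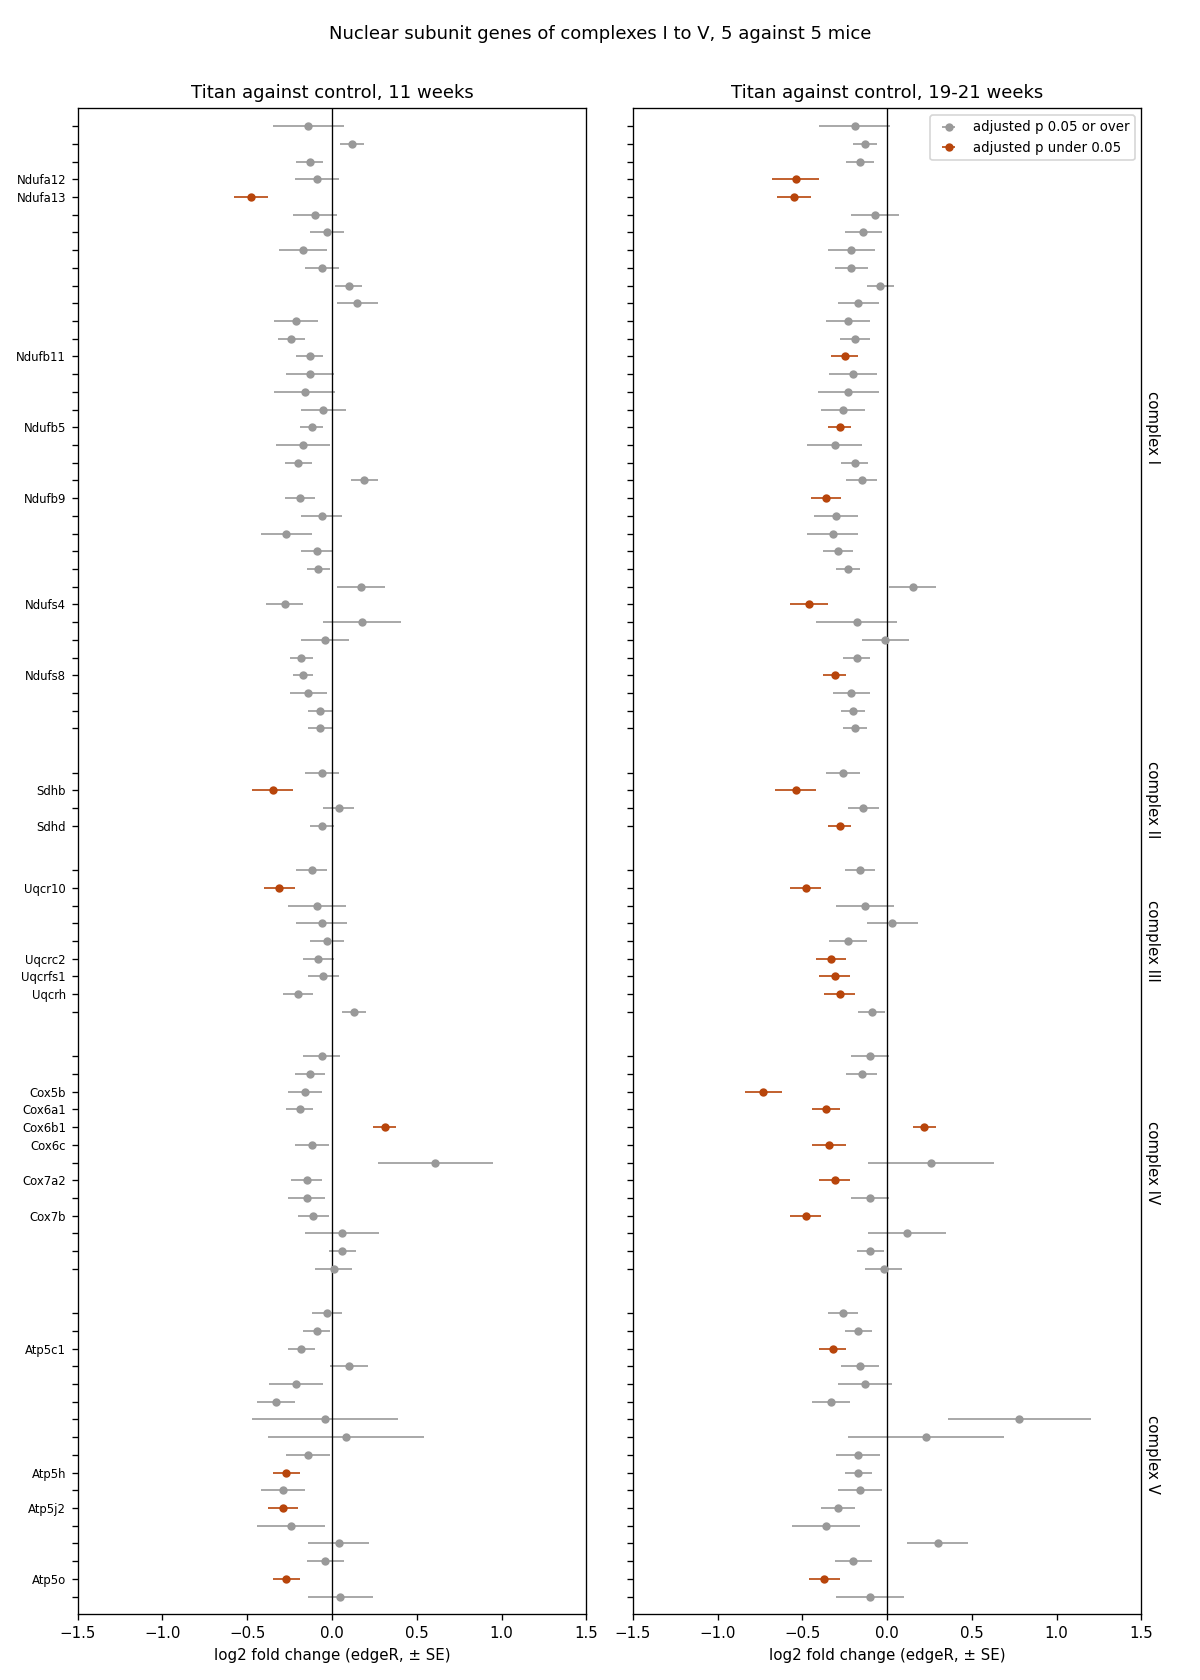
Log2 fold change (edgeR, points, with bars of ± SE) of the 78 tested nuclear subunit genes, Titan against control, at 11 weeks on the left and at 19–21 weeks on the right, 1 gene per line and grouped by complex. Orange points passed an adjusted p under 0.05 and grey points did not, and genes that passed at either age are named. At 19–21 weeks 70 genes lie below 0, and at 11 weeks 61 do.

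The library depth behind these values was 6794935 to 23295028 reads on genes per mouse, with a median of 9524930 in 19–21-week-old Titan mice and of 11218712 to 14283662 in the other groups. P values measure the spread between these mice, and in bulk tissue fewer cells of a type and less RNA per cell cannot be told apart. The summed CPM of the 6 hepatocyte markers was 72010 to 88541 in 19–21-week-old Titan mice and 64384 to 96204 in their controls, and 0 of them passed the test at that age and 1, lower, at 11 weeks. Markers of Kupffer cells, cholangiocytes and erythroid cells had 0 calls at both ages, endothelial markers had 2 lower at 11 weeks and 1 lower at 19–21 weeks, stellate markers 1 higher at 11 weeks and leukocyte markers 1 higher at each age. Skeletal muscle and adipocyte markers summed to at most 0.816 and 2.35 CPM in the 19–21-week-old Titan mice, and 1 adipocyte marker had 0 reads in all mice. Between 13.05% and 21.68% of reads fell outside genes in 15 libraries and 26.39% to 30.96% in the other 5, of which 2 were 19–21-week-old Titan mice and 1 belonged to each other group. The part of cell types in the subunit results was not tested. That of reads outside genes was examined only without those libraries and with the percent of such reads as a covariate.

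Complex I takes electrons from NADH, and all 35 of its nuclear genes chosen here were tested. At 19–21 weeks 7 of the 35 were lower in Titan mice, 34 had a log2 fold change below 0 and the median was -0.21. Ndufab1, not among the 35, was read with a list below and was at -0.14 at that age (adjusted p = 0.314, edgeR). Ndufa13, which codes for an accessory subunit also known as GRIM-19, was measured at 71, 65.0, 85.7, 58.5 and 75.5 CPM in 19–21-week-old controls and at 51.1, 52.6, 46.8, 41.2 and 52.3 CPM in Titan mice of that age. At 11 weeks it was at 65.6, 75.2, 73.5, 71.6 and 75.0 CPM in controls and at 46.2, 59.1, 55.4, 49.5 and 48.7 CPM in Titan mice. The groups did not overlap at either age, and the highest Titan value lay below the lowest control value each time. The log2 fold change was -0.48 ± 0.10 (SE, adjusted p = 0.00153, edgeR) at 11 weeks and -0.55 ± 0.10 (adjusted p = 0.00108, edgeR) at 19–21 weeks.

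Ndufs8, the one of the 7 nuclear core subunits that passed the test, carries iron-sulfur clusters of the electron path. It was at 53.3, 50.5, 51.7, 58.8 and 50.9 CPM in 19–21-week-old controls and at 41.9, 42.2, 43.6, 43.3 and 42.3 CPM in Titan mice. The Titan mice were tightly grouped below every control, with a log2 fold change of -0.31 ± 0.07 (adjusted p = 0.00425, edgeR). The core subunit Ndufs7 (-0.18, adjusted p = 0.154, edgeR) had groups that did not overlap but missed the threshold, and Ndufs1 (-0.29, adjusted p = 0.0518, edgeR), whose groups overlapped, also missed it. Ndufs3 was the core subunit with a value above 0, at 0.15 (adjusted p = 0.575, edgeR). It kept 1387 reads over all mice, and its genomic copy Gm12251 matches it at 98.6% over 789 bases. Reads that match both places are not counted, so its value rests on the remaining reads.

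Among the accessory subunits, Ndufa12, which belongs to the matrix arm, was at 21.3, 19.9, 18.1, 16.3 and 20.9 CPM in 19–21-week-old controls and at 11.8, 12.3, 12.4, 14.7 and 15.0 CPM in Titan mice. No Titan mouse reached the lowest control, and the log2 fold change was -0.54 ± 0.14 (adjusted p = 0.0159, edgeR). The genomic copy Gm15920 matches Ndufa12 at 99.5% over 399 bases and took 2125 reads, against 4503 on the gene. With the counts of copies added to their genes, the call held. At 11 weeks the Ndufa12 values of the lines overlapped, from 16.3 to 22.0 CPM in controls and from 13.3 to 21.8 CPM in Titan mice. Ndufs4, needed for the last steps of complex I assembly, fell by 0.46 on the log2 scale at 19–21 weeks (adjusted p = 0.0118, edgeR). Ndufb9 (-0.36), Ndufb5 (-0.28) and Ndufb11 (-0.25), accessory subunits of the membrane arm, also fell, with adjusted p of 0.0119, 0.0168 and 0.0445 (edgeR). Ndufb11 lost its call in 17 of 33 alternatives. Of the Ndufb9 exon length, 28.6% is shared with an overlapping gene model, Gm49356, and reads there are not assigned to either.

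Complex II oxidises succinate and is also an enzyme of the citric acid cycle. Sdhb, its iron-sulfur subunit, was at 172, 168, 153, 157 and 129 CPM in 19–21-week-old controls and at 95.8, 114, 121, 101 and 104 CPM in Titan mice. The lines did not overlap at this age, and the log2 fold change was -0.54 ± 0.12 (adjusted p = 0.00556, edgeR). At 11 weeks Sdhb was at 147, 142, 199, 185 and 148 CPM in controls and at 157, 138, 109, 110 and 131 CPM in Titan mice. One Titan mouse lay among the controls there, and the log2 fold change was -0.35 ± 0.12 (adjusted p = 0.0443, edgeR). Sdhd, a membrane anchor, fell at 19–21 weeks by 0.28 (adjusted p = 0.0156, edgeR). The flavoprotein Sdha (-0.26, adjusted p = 0.101, edgeR) and the other anchor, Sdhc (-0.14, adjusted p = 0.372, edgeR), did not pass. At 11 weeks these 3 lay between -0.06 and 0.04.

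Complex III hands electrons from coenzyme Q to cytochrome c, and 4 of its 9 nuclear genes were lower at 19–21 weeks, with a median of -0.23. Uqcr10, a small subunit of the complex, was at 97.9, 92.8, 104, 86.2 and 92.3 CPM in 19–21-week-old controls and at 71.6, 73.5, 63.8, 58.7 and 72.5 CPM in Titan mice. At 11 weeks it was at 86.8, 93.6, 111, 90.9 and 102 CPM in controls and at 73.3, 86.7, 83.3, 66.1 and 81.9 CPM in Titan mice. The lines were apart at both ages, narrowly at 11 weeks. Its log2 fold changes were -0.31 ± 0.09 (adjusted p = 0.0203, edgeR) at 11 weeks and -0.48 ± 0.09 (adjusted p = 0.00162, edgeR) at 19–21 weeks. Uqcrc2 (-0.33), a large core protein, Uqcrfs1 (-0.31), the Rieske iron-sulfur protein, and Uqcrh (-0.28), the hinge protein, also fell at 19–21 weeks, with adjusted p of 0.0322, 0.0363 and 0.0454 (edgeR). Uqcrh lost its call in 19 of 33 alternatives. Cyc1, cytochrome c1, was at -0.16 (adjusted p = 0.304, edgeR).

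Complex IV reduces oxygen to water. Of its 20 nuclear genes 13 were tested, and at 19–21 weeks 5 were lower and 1 was higher, with a median of -0.10. Cox5b, a subunit of the enzyme's matrix side, had the smallest p of all subunit genes. It was at 26.2, 38.4, 42.2, 38.2 and 35.8 CPM in 19–21-week-old controls and at 21.9, 22.8, 21.5, 20.8 and 22.0 CPM in Titan mice of that age. At 11 weeks it was at 27.9, 29.4, 27.9, 24.8 and 27.1 CPM in controls and at 20.4, 28.1, 24.7, 26.7 and 22.6 CPM in Titan mice. Of the 19–21-week-old controls, 4 lay above every other mouse, and all 5 lay above the Titan mice of their age, whereas the 11-week-old groups overlapped. The log2 fold change at 19–21 weeks was -0.73 ± 0.11 (0.602-fold, adjusted p = 0.000186, edgeR), and the 19–21-week-old controls were also 0.40 above the 11-week-old controls on the log2 scale (adjusted p = 0.234, edgeR).

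Cox7b, a small membrane subunit, was at 105, 107, 119, 98.6 and 94.2 CPM in 19–21-week-old controls and at 76.8, 85.4, 72.6, 62.6 and 79.7 CPM in Titan mice. The lines did not overlap, and the log2 fold change was -0.48 ± 0.09 (adjusted p = 0.00182, edgeR). Cox6a1 (-0.36), Cox6c (-0.34) and Cox7a2 (-0.31), all small nuclear subunits, fell with adjusted p of 0.00953, 0.0469 and 0.0347 (edgeR), and Cox6c lost its call in 15 of 33 alternatives. Cox6b1, which sits on the side facing the intermembrane space and touches both monomers of the complex IV dimer, went the other way. It was at 164, 153, 177, 155 and 165 CPM in 11-week-old controls and at 203, 199, 194, 195 and 219 CPM in Titan mice of that age, with no overlap. At 19–21 weeks it was at 158, 167, 161, 149 and 142 CPM in controls and at 164, 187, 191, 193 and 173 CPM in Titan mice, where 1 Titan mouse lay among the controls. The log2 fold changes were 0.31 ± 0.07 (adjusted p = 0.00292, edgeR) and 0.22 ± 0.07 (adjusted p = 0.0422, edgeR). The call at 19–21 weeks was lost without replicate 1, 3, 4 or 5 of the controls or replicate 2, 3 or 4 of the Titan mice of that age, without replicate 5 of the 11-week-old controls, and when only these groups were fitted. Complex IV genes made up 16.5% to 17.3% of the nuclear subunit CPM in 19–21-week-old Titan mice and 15.9% to 16.3% in controls, without overlap.

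Complex V had 17 of its 18 nuclear gene IDs tested, and the untested one is a second ID of Atp5o with 0 reads. At 19–21 weeks 2 genes were lower, Atp5o and Atp5c1, and the median was -0.17. Atp5o, which links the F1 head to the stalk, fell by 0.37 on the log2 scale (adjusted p = 0.00853, edgeR) and by 0.27 at 11 weeks (adjusted p = 0.0345, edgeR). Its values at 11 weeks were 54.4, 56.2, 52.5, 51.3 and 59.2 CPM in controls and 45.5, 45.8, 49.3, 42.5 and 43.8 CPM in Titan mice, with no overlap, whereas the 19–21-week-old groups overlapped. Of its exon length, 29% is shared with the second ID. Atp5c1, the shaft of the F1 head, was the one of the 5 F1 genes that passed, at -0.32 ± 0.08 (adjusted p = 0.0185, edgeR). Atp5b, the catalytic subunit, was at -0.17 (adjusted p = 0.206, edgeR) and Atp5a1 at -0.26 (adjusted p = 0.0641, edgeR). At 11 weeks the peripheral stalk and membrane genes Atp5h (-0.27) and Atp5j2 (-0.29) fell, with adjusted p of 0.0280 and 0.0454 (edgeR), and Atp5j2 lost its call in 17 of 33 alternatives. At 19–21 weeks they were at -0.17 and -0.29, with adjusted p of 0.200 and 0.0638 (edgeR).

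**Figure D2:**
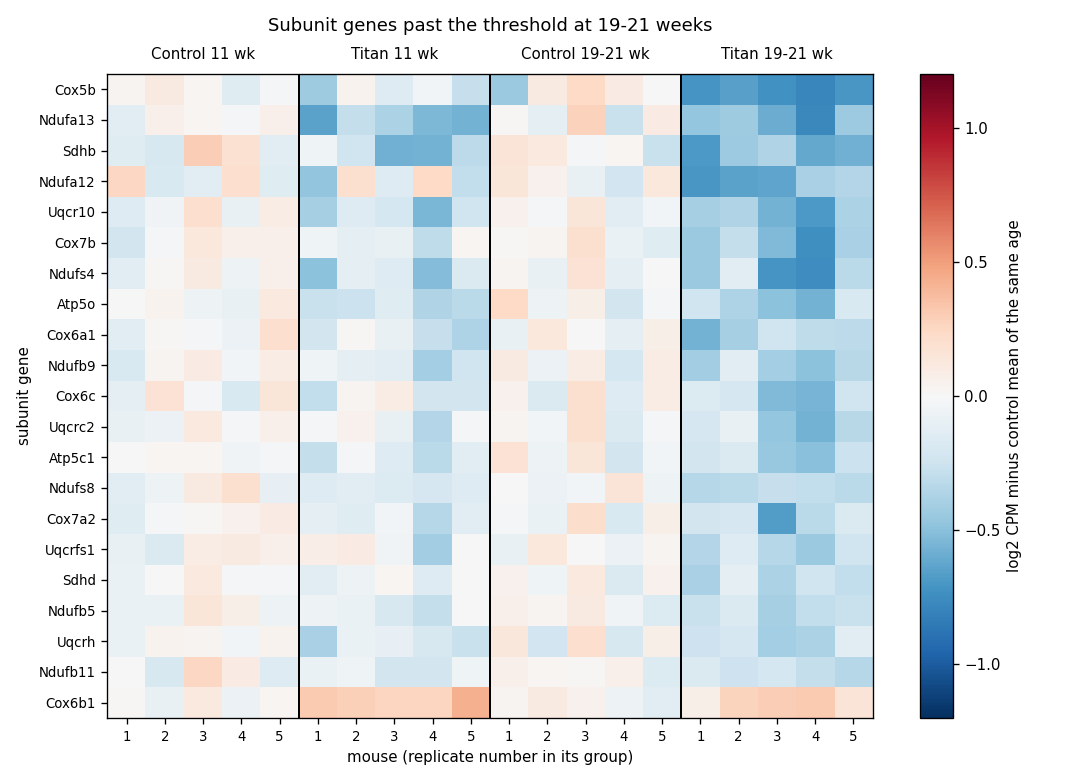
Heat map of the 21 subunit genes past the threshold at 19–21 weeks (lines) in the 20 mice (columns, by group and replicate number), where colour gives log2 CPM minus the mean of the controls of the same age, blue below and red above. The 5 Titan mice of 19–21 weeks are blue for Cox5b, at 20.8 to 22.8 CPM against 26.2 to 42.2 CPM in controls, and Titan mice of both ages are red for Cox6b1.

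Taking both ages, 4 genes were lower each time, Ndufa13, Sdhb, Uqcr10 and Atp5o, which is 66.7% of the 6 genes lower at 11 weeks and 20% of the 20 lower at 19–21 weeks, and 1, Cox6b1, was higher each time. The calls at 11 weeks were the less stable, since Sdhb kept its call in 13 of 33 alternatives, Atp5o in 24, Uqcr10 in 27 and Ndufa13 in 33, and at 19–21 weeks these 4 kept theirs in 31 to 33. Over all genes 2.89% were lower at both ages, 37.6% and 59.3% of those lower at each age, and 2.40% were higher at both. These comparisons use different mice, and over the 78 genes their log2 fold changes correlated with r = 0.58, against 0.71 over all 13783 genes, given as a description since all points come from the same libraries. Of the 78 genes, 65 were lower at 19–21 weeks than at 11 weeks in log2 fold change, with a median difference of -0.12, against 6456 of all 13783 genes and 0.02. The test of that difference, the interaction of line and age, called 0 subunit genes and 1 of all genes (0.00726%, lower), and 7 subunit genes had an unadjusted p under 0.05 with edgeR. DESeq2 called 1. Cox5b had the smallest interaction p among them, with a difference of -0.57 (adjusted p = 0.216, edgeR), so a change with age in the effect of line is not shown for any single subunit gene by edgeR.

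Within the Titan line, 19–21-week-old mice had lower values than 11-week-old mice for 71 of 78 nuclear genes, with a median of -0.155 against 0.02 over all genes. Ndufa10, an accessory subunit of complex I, was the 1 gene that passed, where 0.762% of all genes were lower and 0.486% higher. It was at 142, 140, 126, 127 and 137 CPM at 11 weeks and at 101, 115, 120, 107 and 105 CPM at 19–21 weeks, with no overlap, and fell by 0.29 ± 0.07 on the log2 scale (adjusted p = 0.0380, edgeR). It no longer passed without replicate 1, 2 or 5 of the 11-week-old or without replicate 1, 4 or 5 of the 19–21-week-old Titan mice. The call was also lost without the 5 libraries named above or with raw library sizes. DESeq2 called 4 genes lower, where 1.6% of all genes were. The age groups of Titan mice did not overlap for 3 nuclear subunit genes, all lower with age, where the backgrounds were 1.56% lower and 1.41% higher. In control mice 0 subunit genes differed with age, where 0.0435% of all genes were higher and 0.0435% lower. There 2 nuclear subunit genes had an unadjusted p under 0.05 (edgeR), DESeq2 called 0 and the median was -0.02. All 78 genes overlapped between the ages there, and 0.508% of all genes did not in each direction.

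Summed over the 86 nuclear genes, the CPM was 7719, 7834, 8144, 6927 and 7785 in 19–21-week-old controls and 6604, 7176, 6309, 6015 and 6918 in Titan mice of that age. The difference of the means, Titan against control, was -14.0%, yet the groups overlapped, since 1 control lay within the Titan range. Of the 5 Titan mice 4 were under 7000 CPM, as was 1 mouse in each of the groups of 11-week-old Titan and 19–21-week-old control mice and 0 of the 11-week-old controls. The difference was -6.02% at 11 weeks. By complex at 19–21 weeks, the mean sum differed by -14.7% for complex I (1809 ± 133 CPM in Titan mice against 2120 ± 133 CPM in controls, SD, n = 5), by -18.0% for complex II, by -15.2% for complex III, by -9.97% for complex IV and by -13.3% for complex V. The mitochondrial sum was 18376 to 31523 CPM in 19–21-week-old Titan mice and 23451 to 35265 CPM in controls, a difference of the means of -18.9%, and the groups overlapped. No p is given for these sums.

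**Figure D3:**
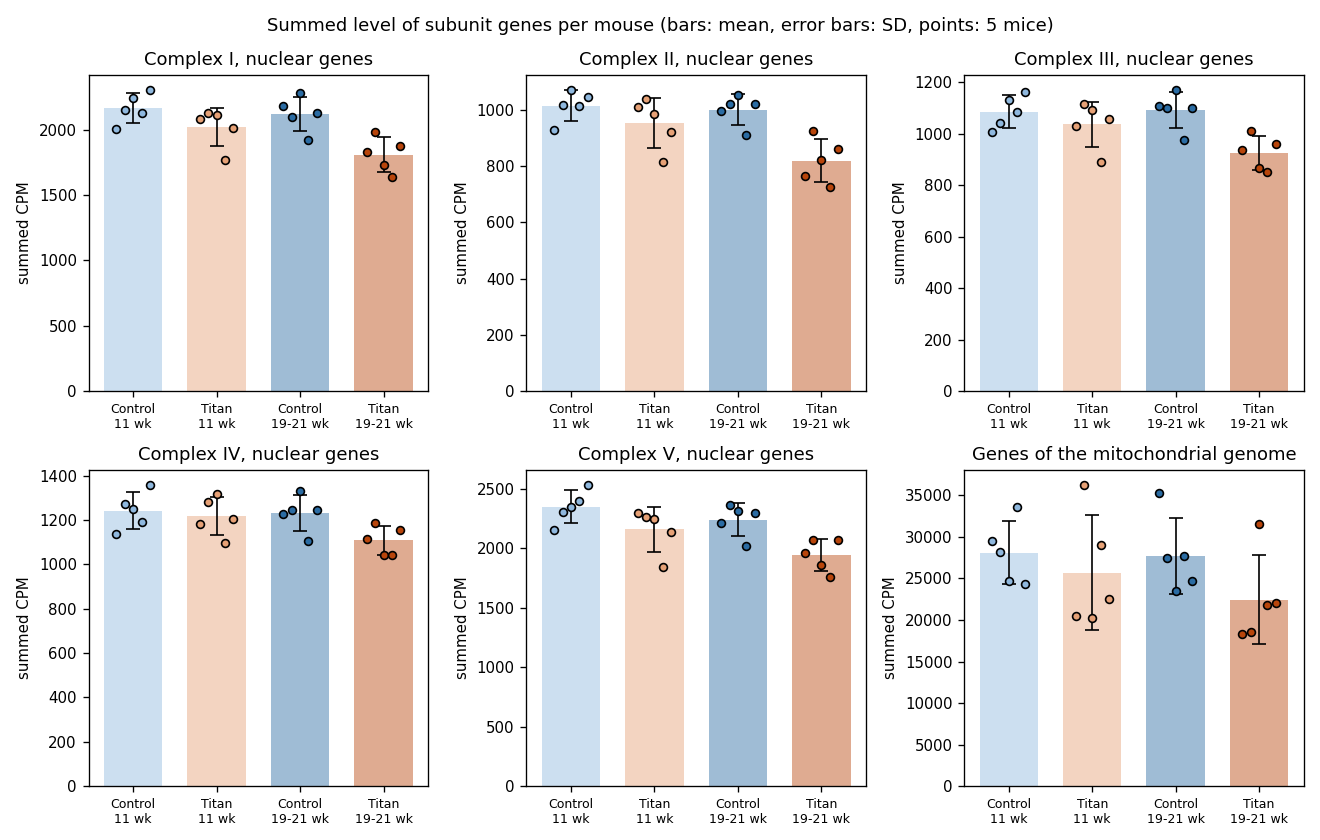
Summed CPM of the nuclear subunit genes of each complex and of the genes of the mitochondrial genome, by group, where points are the 5 mice, bars the mean and error bars the SD. The mean of the 19–21-week-old Titan mice is the lowest of the 4 groups in each panel, at 1809 CPM for complex I against 2120 CPM in controls of that age, and the groups overlap.

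The mitochondrial genome codes for 13 subunits, and 7 of these genes had enough reads to test. With all mice 0 passed in any comparison with edgeR, 1 was lower at 19–21 weeks without replicate 3 of the Titan mice, and at an unadjusted p under 0.05 edgeR gave 0 genes at 11 weeks and 1 at 19–21 weeks, where DESeq2 called 1. mt-Co1, the catalytic core of complex IV, was at 10085, 8833, 7768, 8660 and 7844 CPM in 19–21-week-old controls and at 5471, 5802, 8633, 6876 and 6561 CPM in Titan mice. One Titan mouse lay among the controls and the other 4 below them, with a log2 fold change of -0.37 ± 0.14 (adjusted p = 0.0926, edgeR) and of -0.54 ± 0.15 (adjusted p = 0.0616, edgeR) without the 5 libraries with over 25% of reads outside genes. That Titan mouse, replicate 3, was one of these libraries. mt-Cytb, the complex III subunit, was at -0.37 (adjusted p = 0.305, edgeR), and the complex I genes mt-Nd1, mt-Nd2, mt-Nd4 and mt-Nd5 were between -0.36 and -0.16. The median of the 7 genes was -0.31 at 19–21 weeks and -0.53 without those libraries. At 11 weeks it was -0.16 and turned to 0.10 without them.

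mt-Nd6, the one subunit gene on the minus strand, varied most between mice. It was at 93.6, 128, 83.2, 1234 and 147 CPM in 11-week-old controls, at 939, 115, 193, 71.7 and 109 CPM in 11-week-old Titan mice, at 75.0, 73.4, 104, 333 and 173 CPM in 19–21-week-old controls and at 124, 107, 984, 129 and 144 CPM in 19–21-week-old Titan mice. In each group 1 mouse was above the rest, least so in the 19–21-week-old controls. Each of these 4 mice had the highest share of reads outside genes of its group, at 28.17%, 26.39%, 30.53% and 30.96% in the order given. Reads antisense to mt-Nd5, next to mt-Nd6 on the genome and read from the same strand as it, were also high there, at 1915, 1438, 535 and 1509 CPM against 132 to 357 CPM in the other 16 mice. Why these libraries stood apart was not tested. The log2 fold change of mt-Nd6 was 0.98 ± 0.86 (adjusted p = 0.521, edgeR) at 19–21 weeks.

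**Figure D4:**
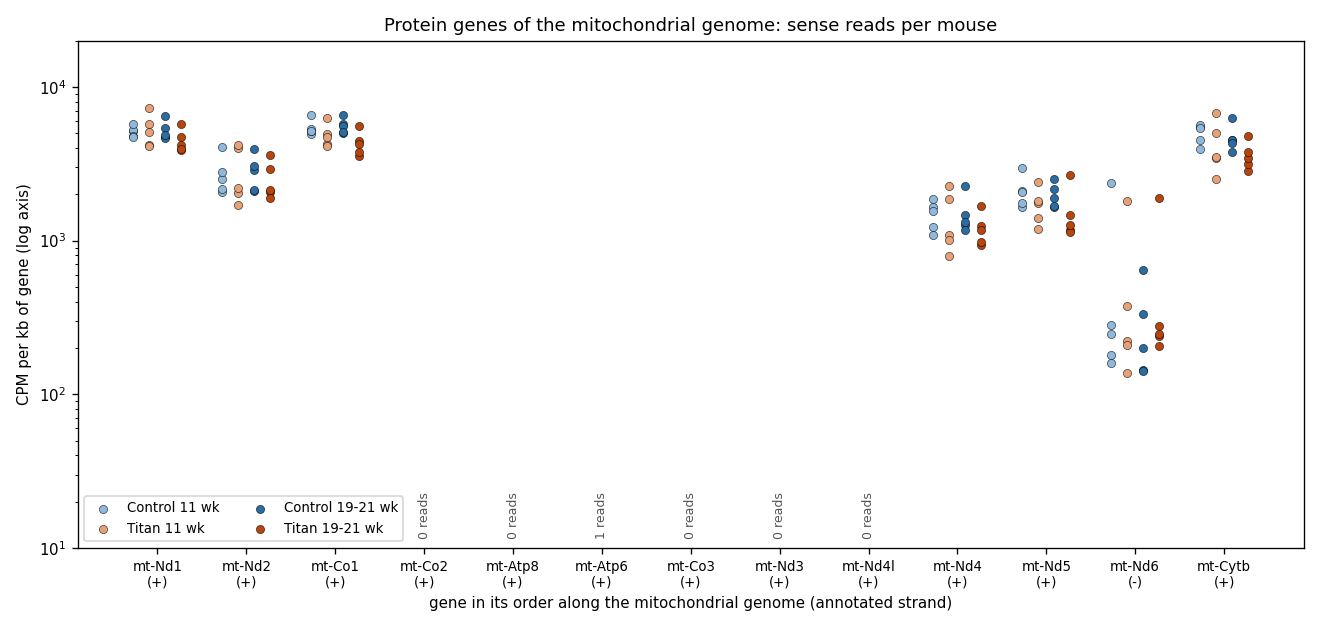
Level of the protein genes of the mitochondrial genome in each mouse (points, coloured by group), as CPM per kb of gene on a log axis, in their order along the genome with the annotated strand in brackets. The 6 genes from mt-Co2 to mt-Nd4l have 0 or 1 read in all mice and no points, and mt-Nd6 has 3 mice far above the others.

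**Figure D5:**
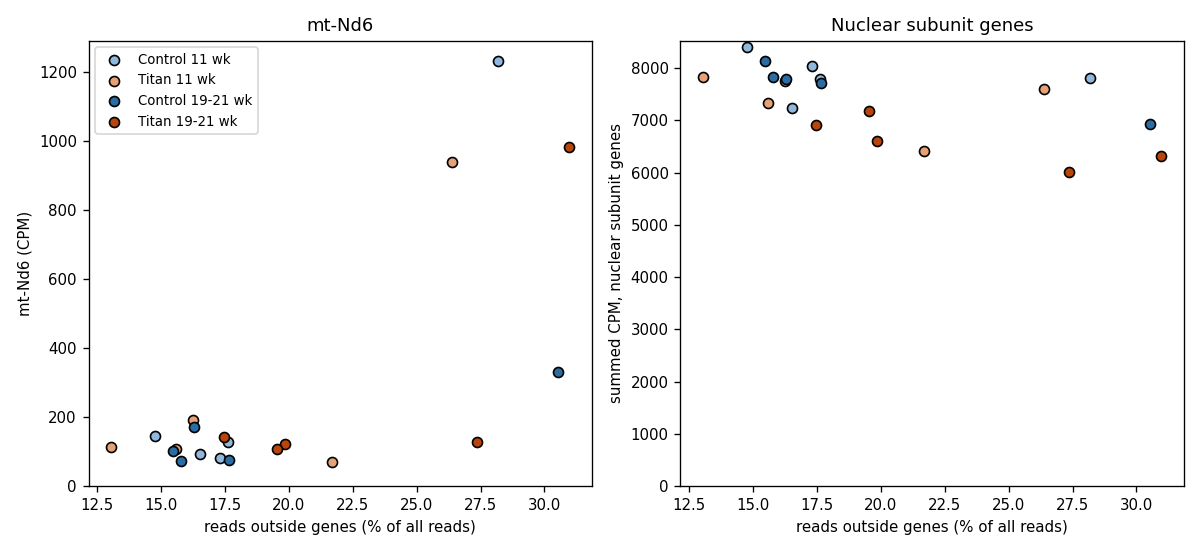
CPM of mt-Nd6 on the left and summed CPM of the nuclear subunit genes on the right, against the percent of all reads outside genes, each point 1 mouse coloured by group. Of the 5 mice with 26.39% to 30.96% of reads outside genes, 4 have the highest mt-Nd6 levels, and the nuclear sums of all 5 lie between 6015 and 7814 CPM.

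The other 6 mitochondrial genes, which lie next to each other, had too few reads to test. mt-Co2, mt-Atp8, mt-Co3, mt-Nd3 and mt-Nd4l had 0 reads in all 20 mice and mt-Atp6 had 1 read. In GRCm38 a stretch of chromosome 1 carries copies of this part of the mitochondrial genome, and reads that match several places are not counted. The copies Gm28661 of mt-Co2 (681 of 684 bases), Gm10925 of mt-Atp6 (678 of 681 bases), Gm28437 of mt-Co3 (783 of 784 bases) and Gm10222 of mt-Nd4l (294 of 297 bases) matched at 100% of the aligned bases. The copy of mt-Nd3, Gm28438, matched at 99.7% over 345 of 348 bases and had 208 reads over the 20 mice. The stretch at MT:9459-9481 shows the 1 difference there, in capitals, which is T3C from mt-Nd3 to the copy, counted from the first base shown.
mt-Nd3: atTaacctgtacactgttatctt
Gm28438: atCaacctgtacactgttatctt
For the genes with such a copy, a level at or near 0 is therefore no measure of their RNA. Reads over the differing base can be told apart between mt-Nd3 and its copy. Even so, 208 reads fell on the copy and 0 on mt-Nd3, and why was not tested. No annotated copy of mt-Atp8 was found. Why it had 0 reads was not tested, and its 0 is not read as a level either.

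Per kilobase of exon, 6 of the 7 tested mitochondrial genes were above every nuclear subunit gene, and mt-Nd6, at 516 CPM per kb, lay below Atp5b. The mean over all mice was 5053 CPM per kb for mt-Co1, 5030 for mt-Nd1, 4374 for mt-Cytb and 2722 for mt-Nd2. Copies on chromosome 1 match 480 of 1545 bases of mt-Co1 at 99.8% (Gm29216) and 876 of 1378 bases of mt-Nd4 at 100% (Gm28439). Reads that match both places are not counted, so the levels of these genes and the mitochondrial sums may be understated. Of the nuclear genes Atp5b led at 521 CPM per kb, followed by Cox4i1 at 308, Cox6b1 at 284, Atp5g3 at 278 and Ndufa4, counted here with complex IV, at 262. Uqcr10 (195), Sdha (181) and Ndufb9 (142) led complexes III, II and I. Isoforms known from other tissues were low in these livers. Cox4i1 had a mean of 236 CPM while its lung isoform Cox4i2 had at most 3 reads in a mouse, and the muscle isoforms Cox6a2 and Cox8b had at most 2 reads. Ndufa4l2, the hypoxia-linked relative of Ndufa4, had at most 21 reads. The testis isoforms Cox7b2 and Cox8c had 0 reads in all mice. The muscle isoform Cox7a1 was low, at 0.694 to 1.06 CPM in the group means, with no call at either age. Cox6b2, a testis isoform that did not pass the edgeR filter on low counts, had 37, 52 and 29 reads in 2 of the 11-week-old controls and 1 of the 19–21-week-old controls and at most 4 reads in every other mouse. DESeq2, which tested it, called it lower in Titan mice at 11 weeks (log2 fold change -4.51). The genes of the ATP synthase ring, Atp5g1, Atp5g2 and Atp5g3, code for the same mature protein, and Atp5g3 had a mean of 201 CPM. Atp5g1 is uncertain, because 1729 reads fell on its near-identical copy Gm10039 and 694 on the gene itself. Cox7c, at about 2.49 CPM per kb, also has 5 such copies, and reads that match several places are lost for these genes.

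Promoters were read for sites of factors known for driving nuclear respiratory genes, NRF1, GABP, YY1 and ESRRA. RefSeq promoters of GRCm38.p6, 300 bases with 250 before the start, were matched by symbol for 66 of the 85 nuclear symbols. On either strand, the NRF1 site GCGCATGCG stood in 8 of the 66 (12.1%) and in 1.81% of all 27025 promoters, the YY1 site AAGATGGCG in 6 (9.09%) and 1.495%, the GABP site CCGGAAGT in 5 (7.58%) and 4.0%, and the ESRRA site TCAAGGTCA in 2 (3.03%) and 0.407%. In promoters of tested protein-coding genes the shares were 3.76% for NRF1, 3.29% for YY1, 8.42% for GABP and 0.263% for ESRRA. The subunit genes were below that background for GABP and still above it for NRF1 and YY1, by less than over all promoters. For ESRRA they were above it, with 2 genes. Of the 17 matched genes lower at 19–21 weeks, 1 held each site (5.88%). The 46 genes tested and not lower held them 7, 5, 4 and 1 times in the same order. All 6 YY1 matches lay after the annotated start, at bases 22 to 35 and on the strand of the gene. The ESRRA match of Sdhd lay at base 36. The 4 sites in genes that fell are shown in capitals, 5′ to 3′ along the gene, for Cox6a1 (chr5:115349102-115349130, minus strand, NRF1), Ndufs4 (chr13:114388045-114388069, minus, YY1), Uqcrh (chr4:116075064-116075091, minus, GABP on the other strand) and Sdhd (chr9:50603800-50603823, minus, ESRRA on the other strand).
Cox6a1: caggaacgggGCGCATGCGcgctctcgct
Ndufs4: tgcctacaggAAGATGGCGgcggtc
Uqcrh: agtatgccgcACTTCCGGccaggtcgcc
Sdhd: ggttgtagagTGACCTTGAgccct

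Cox5b and Uqcr10, among the strongest falls, held none of these letters in the window, and their promoters are shown with CG in capitals. Ndufa13, with the second smallest p at 19–21 weeks, is not shown, because its window lies in an annotated exon. The 212 bases upstream of the annotated Cox5b exon (chr1:36691237-36691448, plus strand) hold 18 CG dinucleotides and the 250 bases before Uqcr10 (chr11:4704345-4704594, minus strand) hold 5, in windows of unequal length.
Cox5b: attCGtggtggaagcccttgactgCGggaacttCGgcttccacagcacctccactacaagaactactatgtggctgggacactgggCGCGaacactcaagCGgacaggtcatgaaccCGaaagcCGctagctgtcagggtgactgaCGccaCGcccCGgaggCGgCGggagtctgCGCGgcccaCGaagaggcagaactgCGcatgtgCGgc
Uqcr10: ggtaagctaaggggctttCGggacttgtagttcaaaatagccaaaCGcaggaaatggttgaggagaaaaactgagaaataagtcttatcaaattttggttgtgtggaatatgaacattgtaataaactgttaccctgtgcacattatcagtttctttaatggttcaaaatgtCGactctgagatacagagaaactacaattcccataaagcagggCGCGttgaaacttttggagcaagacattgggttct
The median over the 300-base promoters was 14 CG in the 66 subunit genes, 16 in tested protein-coding genes and 6 in all promoters. A match or its absence in these letters is a description of the sequence only.

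Genes that work with the respiratory chain were read from 5 lists, whose counts stand against the 7.69% lower and 7.23% higher of all genes at 11 weeks and the 4.88% lower and 4.24% higher at 19–21 weeks. Of 13 citric acid cycle genes, all 13 were at or below 0 at 19–21 weeks with a median of -0.20, and 2 fell, the NAD-linked isocitrate dehydrogenase subunits Idh3g (-0.32, adjusted p = 0.00496, edgeR) and Idh3b (-0.33, adjusted p = 0.0181, edgeR). At 11 weeks Suclg2 rose (0.35) and Idh3b (-0.29) and Sucla2 (-0.30) fell. Of 11 coenzyme Q genes 1 fell at 19–21 weeks, the kinase-like Coq8a (-0.55, adjusted p = 0.0224, edgeR), with a median of -0.20, and Coq5 rose at 11 weeks (0.38). The list of electron carriers, the ATP synthase inhibitor and inner membrane carriers had 13 genes, Ndufab1 among them. Of these, Gpd2, the mitochondrial glycerol-3-phosphate dehydrogenase (0.98 ± 0.14, adjusted p = 8.8e-05, edgeR), and Ucp2, an uncoupling protein family member (0.95 ± 0.20, adjusted p = 0.00243, edgeR), rose at 11 weeks. At 19–21 weeks they were at 0.22 and 0.61 and did not pass, while cytochrome c, Cycs (-0.49), and the sulfide quinone reductase Sqor (-0.42) fell, with adjusted p of 0.0438 and 0.0177 (edgeR).

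Of 13 outer membrane, import and chaperone genes, 2 fell at 11 weeks and 3 at 19–21 weeks. Hspe1, the mitochondrial chaperonin partner HSP10, fell by 0.46 and by 1.06 on the log2 scale, with adjusted p of 0.0194 and 3.8e-05 (edgeR). The pore gene Vdac2 fell at both ages and Vdac1 (-0.26) at 19–21 weeks. Of 21 genes of mitochondrial transcription, replication and biogenesis, 2 fell at 11 weeks, Tefm (-0.41) and Lrpprc (-0.25), and 1 at 19–21 weeks, Tfb1m (-0.54, adjusted p = 0.0260, edgeR), which are 9.52% and 4.76% and near the shares of all genes. The median of the list was -0.07 at 11 weeks and -0.08 at 19–21 weeks. The regulators themselves did not pass at 19–21 weeks, with Ppargc1a at -0.39, Nrf1 at 0.18, Gabpa at -0.12, Esrra at 0.03, Yy1 at 0.02 and Tfam at -0.05.

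The 20 nuclear genes lower at 19–21 weeks lie on 15 chromosomes. Their median exon length was 1112 bases, against 923 in the 58 tested genes that were not lower, and their median level was 88.4 CPM against 54.2. Subunit genes were short as a group, at a median of 992 bases against 3377 in tested protein-coding genes. Their median level was 61.0 CPM, against 17.1 CPM in those genes. The shares called lower were not compared at matched levels.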

How the data were processed

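Liver RNA of 20 mice was depleted of rRNA, made into directional libraries and mapped by the authors to GRCm38 with STAR 2.5.3a, and the deposited values are raw read counts per gene, unnormalised. The strand column holding 96.83% to 97.55% of strand-assigned reads was used. Reads at several places or on overlapping exons are not counted, which lowers genes with copies. Groups follow the sample titles. Symbols, positions and exon lengths are of GENCODE M21 (55480 of 55573 IDs matched). Following the study, histone genes and Y-linked genes did not enter the fit. Tests were run in edgeR 4.0.16 under R 4.3.3 (filterByExpr, TMM, quasi-likelihood F tests in 1 fit of 4 groups, two-sided, Benjamini–Hochberg over 13783 genes, threshold 0.05). DESeq2 1.42.0 was an alternative. CPM used TMM library sizes. Genomic copies were sought with BLAST 2.17.0 (at least 90% identity over 100 bases), and tables were made with Python 3.11.15. On simulated data with 13550 genes, the fit recovered 42.4% of genes changed by 0.5 on the log2 scale and 74.7% of those changed by 1 at 19–21 weeks, and 35.4% and 69.7% at 11 weeks. Named genes were those with the 10 smallest p per direction and comparison, the leading gene per complex, mitochondrial genes, isoform pairs, complex II and up to 3 genes per list. The genes, lists and tests were chosen with earlier results of these data known. Replicate numbers in the titles did not pair the mice. Alternatives were another scaling, filter, strand count or tool, a replicate block, added copy counts, a covariate of reads outside genes, and leaving out mice.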

Additional observations from a re-analysis of the deposited data

Results flagged for a closer look

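Of 208 groups of 5 mice examined over 42 named genes and the sums, 13 held a mouse far from the other 4, and chance gives about 1 in 20 groups. Reads of the mitochondrial genome made up 9 of them. mt-Nd6 was at 1234 CPM in replicate 4 of the 11-week-old controls (next highest 147), at 939 CPM in replicate 1 of the 11-week-old Titan mice (next 193) and at 984 CPM in replicate 3 of the 19–21-week-old Titan mice (next 144). That last mouse was also high in mt-Nd5, at 4855 CPM (next 2695), in the sum of the mitochondrial complex I genes, at 17372 CPM (next 11147), and in the sum of all mitochondrial genes, at 31523 CPM (next 22037). In replicate 4 of the 11-week-old controls, mt-Co1 and with it the mitochondrial complex IV sum stood at 10160 CPM (next 8212). mt-Nd4 was at 3110 CPM in replicate 1 of the 19–21-week-old controls (next 2006).

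The other 4 were nuclear genes. Atp5g1 was at 6.17 CPM in replicate 1 of the 19–21-week-old controls (next 2.16), Atp5g2 at 0.136 CPM in replicate 1 of the 19–21-week-old Titan mice (next 0.843) and Cox7a1 at 1.17 CPM in replicate 2 of the 11-week-old controls (next 0.675). Ndufb11 was at 58.0 CPM in replicate 5 of the 19–21-week-old controls, below the next value of 65.3.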

How the results depend on the processing

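None of the 29 calls of single genes reversed its direction under the alternatives run. Values near 0 that were not called did change sign, such as the median of the mitochondrial genes at 11 weeks, from -0.163 to 0.10 without the 5 libraries with most reads outside genes, and the median of the nuclear genes with age in control mice, from -0.021 to 0.035 with raw library sizes and to 0.022 without replicate 4 of the 19–21-week-old controls. With 1 mouse left out, the difference of the mean sums with age in control mice ranged from -8.06% to 3.75% for the mitochondrial genes and from -4.12% to 0.17% for the nuclear genes, and the same differences between Titan and control mice kept their sign. Of the 29 calls, 8 kept an adjusted p under 0.05 in every refit, which were Cox5b, Cox7b, Ndufa12, Ndufa13, Sdhb and Uqcr10 at 19–21 weeks and Ndufa13 and Cox6b1 at 11 weeks. A further limit of 0.5 on the log2 fold change, which is not a refit, kept Cox5b, Ndufa12, Ndufa13 and Sdhb at 19–21 weeks. The number of nuclear genes lower at 19–21 weeks, 20 in the report, was 25 with DESeq2, where 4.87% of all genes were lower. It was 12 with no filter on low counts, where 2% were. With a log2 fold change over 0.5 it was 4, where 2.73% were. Leaving out 1 mouse at a time gave 13 to 23 lower, where 3.39% to 5.04% of all genes were, and 0 to 1 higher. The 1 higher gene without replicate 1 of the 19–21-week-old controls was not Cox6b1. The 1 gene higher at that age, Cox6b1, was 0 with no filter, with a fold change over 0.5, with only the groups compared and with the replicate block. At 11 weeks the 6 lower became 2 with no filter, where 3.03% of all genes were lower. With a fold change over 0.5 they became 0, where 4.68% were, and the higher count was also 0. They were 2 to 8 when 1 mouse was left out, where 5.88% to 8.08% were. The 1 gene lower with age in Titan mice was 4 with DESeq2, 3 with RLE scaling and 4 with scaling without mitochondrial genes. It was 3 with counts over both strands and 4 with at least 10 counts in every mouse. It was 0 with a fold change over 0.5 or only the groups compared, and 0 to 6 with 1 mouse left out. Of all genes, 0.377% to 1.6% were lower in these settings, and 0.165% to 1.66% with 1 mouse left out. In control mice 0 to 1 genes were higher with age with 1 mouse left out. DESeq2 called 1 mitochondrial gene lower at 19–21 weeks and 1 nuclear gene in the interaction, and leaving out 1 mouse gave 0 to 1 mitochondrial genes. The cause of these changes was not tested.

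With the replicate block, 19 genes were lower at 19–21 weeks, 4 at 11 weeks and 0 with age in Titan mice. Of all genes, 4.29%, 6.84% and 0.406% were. The numbers did not pair the mice, since same-number pairs correlated at -0.184 to 0.205 and 4 of 20 mice matched their own number best.

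Chosen after seeing the data were 3 further settings. With the percent of reads outside genes as a covariate, 15 nuclear genes were lower at 19–21 weeks, 0 higher, 11 lower at 11 weeks and 0 lower with age in Titan mice. Of all genes, 4.14%, 7.88% and 0.566% were lower in these comparisons. Without the 5 libraries with most such reads the counts were 8, 0, 4 and 0, where 1.81%, 4.98% and 0.107% of all genes were lower. With raw library sizes the counts were 6, 1, 1 and 0, where 2.44%, 4.64% and 0.428% were. The split of all genes at 19–21 weeks then went from 584 higher and 673 lower to 793 and 336. The median of all genes moved to 0.092. With age in Titan mice it moved to 0.102, and the median of the nuclear subunit genes was then -0.073.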
